A study of Mus musculus with 36 samples.

Results

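Immediate early response genes were described in lung tissue as a set of 10 members, namely Fos, Fosb, Junb, Atf3, Egr1, Egr2, Egr3, Ier2, Ier3 and Dusp1. They were taken by gene symbol from the count tables of female and male mice, and 10 of 10 were present in both tables, among 17716 genes common to the tables. RNA from the left lung of 36 wild-type C57BL/6 mice was sequenced as 1 library per mouse. Each of 6 groups held 3 female and 3 male mice. The groups received saline as the control, crude oil of the Macondo well (MC252), the dispersant Corexit 9500, the dispersant Corexit 9527, or oil mixed with either dispersant (9500+oil and 9527+oil), on days 0, 7 and 13, and all mice were killed on day 14. The mice were 8 weeks old at the first exposure and received 50 µL each time, at 0.1 of the fraction prepared from each agent. The sample labels call this a water-accommodated fraction, whereas the methods of the study call it a saline-accommodated fraction (SAF) given by oropharyngeal aspiration. No genetic modification or further agent was named for any group. Female and male mice lie in separate tables, so sex and table cannot be told apart, and p values measure the spread between the mice of a group.

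Immediate early genes are transcribed within minutes of a stimulus, without the need for new protein synthesis, and their transcripts decay quickly. Signals through MAP kinases, calcium or cyclic AMP act on factors already present in the cell, such as SRF with its ternary complex partners and CREB. Several of the products are transcription factors. Fos, Fosb and Junb form AP-1 dimers, Atf3 is a stress-induced member of the ATF/CREB family, and Egr1, Egr2 and Egr3 are zinc finger factors. Ier2 and Ier3 are short immediate early proteins, and Dusp1 is a phosphatase that inactivates MAP kinases and thereby closes a feedback loop. In lung, these genes are known to respond to injury, mechanical stretch and cytokines, and also to tissue handling and dissociation.

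The 250 bases before the transcription start were examined for the short elements through which these signals act, because shared elements are what the members are known for. RefSeq windows (GRCm38.p6) were matched for 7 members, in 11 windows. Egr1, Egr3 and Ier2 had none. The motifs searched on both strands were TGACG, the core of the cyclic AMP response element, TGACGTCA, the full palindromic element, the CArG box bound by SRF, TGANTCA, the AP-1 element, and GGGCGG, the GC box. A full TGACGTCA also counts as a TGACG match, on each strand. The windows shown are those of the members with the lowest p values in male mice and that of Egr2, which held a CArG box. Capitals mark TGACG on either strand, including its extension to TGACGTCA, and the CArG box.
Fos, chr12:85473640-85473889, plus strand: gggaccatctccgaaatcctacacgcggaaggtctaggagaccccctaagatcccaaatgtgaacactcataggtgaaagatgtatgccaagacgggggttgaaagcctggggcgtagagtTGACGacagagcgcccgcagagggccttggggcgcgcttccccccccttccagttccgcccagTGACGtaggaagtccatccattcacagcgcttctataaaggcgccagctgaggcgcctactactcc
Atf3, chr1:191183334-191183583, minus strand: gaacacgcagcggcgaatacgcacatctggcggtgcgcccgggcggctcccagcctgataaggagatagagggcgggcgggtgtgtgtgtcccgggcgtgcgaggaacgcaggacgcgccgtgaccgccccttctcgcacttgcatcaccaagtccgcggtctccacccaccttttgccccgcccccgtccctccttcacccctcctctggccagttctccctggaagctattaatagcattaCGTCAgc
Dusp1, chr17:26508473-26508722, minus strand: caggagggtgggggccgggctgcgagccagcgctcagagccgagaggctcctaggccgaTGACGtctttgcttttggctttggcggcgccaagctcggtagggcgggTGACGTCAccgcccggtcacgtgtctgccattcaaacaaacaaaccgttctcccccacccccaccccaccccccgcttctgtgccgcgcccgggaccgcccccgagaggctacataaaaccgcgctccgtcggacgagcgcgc
Egr2, chr10:67537619-67537868, plus strand: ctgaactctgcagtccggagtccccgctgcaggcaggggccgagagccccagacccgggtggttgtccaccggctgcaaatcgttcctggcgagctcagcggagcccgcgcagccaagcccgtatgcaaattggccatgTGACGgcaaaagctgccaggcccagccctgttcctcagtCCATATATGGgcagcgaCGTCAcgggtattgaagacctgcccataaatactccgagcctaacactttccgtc

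TGACG was present in 6 of the 7 members with a window, against 19.8% of 27025 genes and 17.8% of 32851 windows of the same length. Fos held it 129 and 66 bases before the start, and Atf3 7 bases before it. Fosb and Junb each held it once, 60 and 106 bases before the start. Dusp1 alone of these members held the full TGACGTCA, 143 bases before the start, an element present in 1.55% of all windows. Egr2 alone of these 7 members held a CArG box, which was present in 1.62% of genes and 1.47% of all windows. Whether Egr1 holds one was not examined. The GC box was found in 6 of 7 members, 35.4% of genes and 32.7% of all windows. TGANTCA was found in 0 of 7 members, 7.82% of genes and 6.75% of all windows. A match describes these letters in these windows and no more, and binding was not measured.

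Total counts ran from 17501180 to 30011557 per mouse. Levels are given as CPM, counts per 1000000 of the effective library size, which is the total count scaled by a normalization factor. Lung markers were abundant in each sex, with a median of 10804 CPM of surfactant protein C (Sftpc) in female and 12590 CPM in male mice. Heart muscle transcripts were also present, with a median of 112 CPM of Myh6 in either sex, whereas the lymphocyte precursor gene Rag1 stayed at or under 0.316 CPM. Their part in the results below was not tested. In 4 female libraries (saline mouse 3, oil mouse 6, Corexit 9527 mouse 11 and 9500+oil mouse 14) mitochondrial genes took 20.7% to 45.1% of the counts, against 5.27% to 11.3% in the other 32 libraries, and the log2 ratio of counts on GC-rich to GC-poor genes was -3.0 to -1.98, against -0.64 to 0.49. These libraries touch every female comparison, so results are given with and without them.

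Most members had far fewer counts in these 4 libraries. Junb, a GC-rich member with 62.6% GC in its longest transcript, had 1.29 to 4.64 CPM in the 4 libraries and 23.2 to 78.0 CPM in the other 14 female libraries. Ier2, with 60.9% GC, had 0 to 11.7 CPM in the 4 libraries and 34.8 to 60.2 CPM in the other 14. Dusp1, with 54.0% GC, had 58.1 to 89.6 CPM against 159 to 420 CPM. For Junb, Ier2, Ier3, Egr2 and Dusp1 every one of the 4 libraries lay below every one of the other 14. The mean log2 CPM of the 4 libraries differed from that of the 14 by -5.0 for Fosb, -4.33 for Junb, -4.19 for Ier2, -2.74 for Egr3, -1.88 for Ier3 and -1.69 for Dusp1. The difference was -1.45 for Egr1, -0.89 for Egr2, -0.71 for Fos and 0.05 for Atf3. Over all genes the median difference was lower in each higher range of GC content. It was 0.96 for 3157 genes under 45% GC, -0.80 for 3260 genes between 50% and 55%, where 6 members lie, -1.82 for 2212 genes between 55% and 60%, where 2 members lie, and -2.43 for 453 genes of 60% GC or more, where Junb and Ier2 lie. The members did not follow this order strictly, since Fosb (56.0% GC) lay below Junb and Ier2, and Egr3 (51.3% GC) below Egr1 (57.3% GC). Fosb and Egr3, which are expressed at a low level, were at 0 counts in some of these libraries and also in others, namely Fosb in female Corexit 9500 mouse 7 and Egr3 in female oil mouse 4 and 9500+oil mouse 13. The part of GC content in the members' differences was not tested. For levels in bulk tissue in general, fewer cells of a type and less RNA per cell cannot be told apart.

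**Figure D1:**
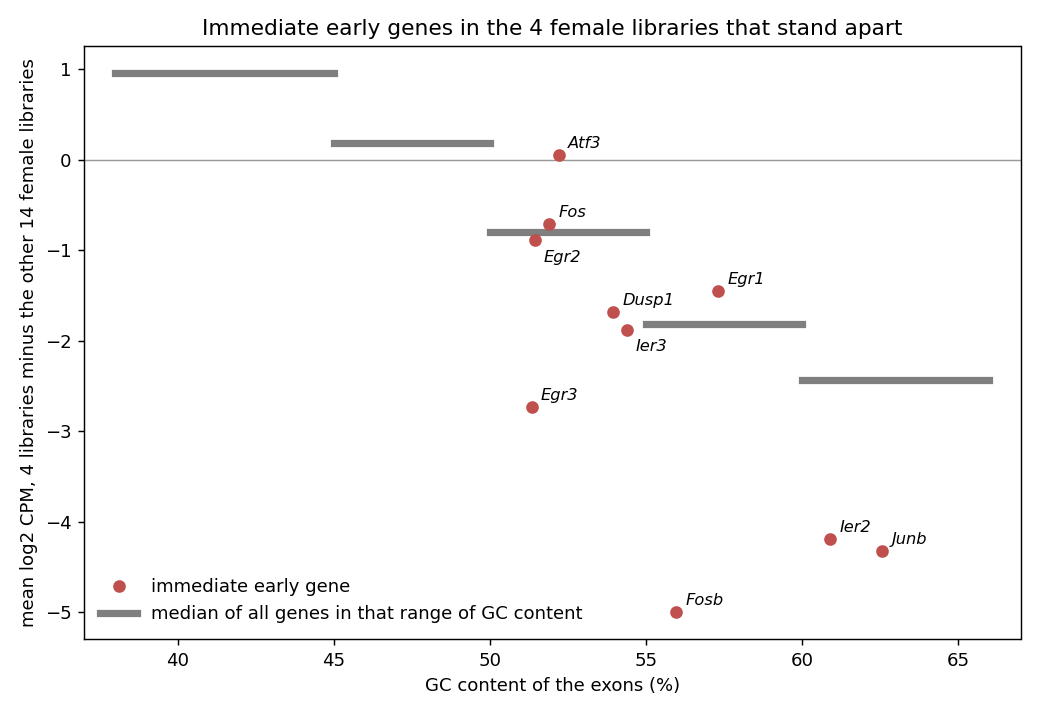
Difference in mean log2 CPM between the 4 female libraries that stand apart and the other 14 female libraries (y axis) against GC content in percent (x axis, labelled as exons). GC content is that of the longest transcript of each gene. Red points are the 10 immediate early genes and grey bars the median of all genes in each range of GC content. Atf3 lies near 0 at 0.05, whereas Fosb (-5.0), Junb (-4.33) and Ier2 (-4.19) lie lowest.

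Between genes, levels were compared as median CPM per kilobase of exon, over all annotated exons of a gene together. This length is 3311 bases for Dusp1, whose longest transcript has 2313, and 1131 by either measure for Ier3. The order of these genes in male mice depends on that choice. In the 18 male mice the highest were Ier3 (58.9 CPM per kilobase, range 47.8 to 76.6), Dusp1 (47.3, range 32.8 to 94.2), Junb (35.4, range 18.5 to 48.0) and Ier2 (31.7, range 26.0 to 44.3), each of which overlapped with its neighbours. Fos (9.11, range 5.27 to 23.0) and Egr1 (7.51, range 5.52 to 24.8) followed, and overlapped with each other and with the lowest values of Junb. Egr2 (3.07, range 2.02 to 4.67) and Atf3 (3.06, range 1.82 to 4.42) lay below both of them without overlap, Fosb (0.784, range 0.505 to 1.21) below these, and Egr3 (0.247, range 0.0117 to 0.471) below Fosb. In the 14 female libraries the order was the same except that Dusp1 (69.1) stood above Ier3 (56.4), Ier2 (29.4) above Junb (23.0) and Egr1 (11.9) above Fos (6.88). Mouse-to-mouse variation differed between members. In male mice the coefficient of variation of CPM was 54.5% for Egr1 and 45.4% for Fos, and 13.9% for Ier2 and 12.2% for Ier3. Egr3 varied by 60.4%, at a level of 0.0517 to 2.07 CPM.

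No member differed between a treatment and saline after adjustment over all genes. All 10 members passed the filter on low counts in every comparison. edgeR's quasi-likelihood test gave 0 of 10 members an adjusted p under 0.05 in each of 24 comparisons, which were the 5 treatments against saline in female mice, in male mice and over both sexes, the 5 interactions of sex and treatment, the 2 mixtures against their dispersant, and any difference among the 6 groups of each table. The share of all tested genes under that threshold was also small. In male mice it was 0.00671% for oil, 0.00662% for Corexit 9500, 0.114% for Corexit 9527, 0% for 9500+oil and 0.00669% for 9527+oil. Over both sexes it was 0.0326% for Corexit 9527 and 0% for the other 4 treatments. It was 0% in each female comparison and each interaction, 0% for 9500+oil against Corexit 9500, 0.559% for 9527+oil against Corexit 9527, and 0.0129% and 0.135% for any difference among the female and the male groups. At an unadjusted p under 0.05 there were also 0 members in the female comparisons, the interactions and the tests of any difference. In female mice that threshold was met by 0.108% of all genes for oil alone, by 0.364% and 0.267% for Corexit 9500 and Corexit 9527 alone, and by 0.155% and 1.1% for the mixtures 9500+oil and 9527+oil. It was met by 1.65%, 0.726%, 0.352%, 0.509% and 2.39% for the interactions in the same order, and by 1.35% and 10.4% for any difference among the female and the male groups. For any difference among the male groups the count of members was 4 without saline mouse 3, 3 without 9527+oil mouse 16, and 0 or 1 without each of the other 16 males. Without female saline mouse 1 the interactions held 2 members for Corexit 9500 (Dusp1 and Egr1), 1 for oil (Fos) and 1 for 9527+oil (Egr1). Without female saline mouse 3 the oil interaction held 1 member, with a positive sign. Egr3 met the threshold in the oil interaction without female oil mouse 5 and in the 9500+oil interaction without female 9500+oil mouse 15. The shares of all genes in these fits without 1 mouse are not given, so these counts cannot be set against them. DESeq2 called 1 member for Corexit 9500 and 2 members for Corexit 9527 in male mice and 0 in the other 22 comparisons. limma voom with sample quality weights, run on 17 comparisons, called 1 member, in 9527+oil against Corexit 9527. At an unadjusted p under 0.05, voom gave 3, 2, 2, 0 and 1 members in female mice for oil, for each dispersant and for the mixtures with 9500 and 9527, all lower, beside 19.6%, 10%, 11.2%, 1.56% and 10.9% of all genes.

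Without the 4 libraries the female counts at an unadjusted p under 0.05 were not 0. In female mice they were 1 member for oil (Junb), 2 for Corexit 9500 (Fos and Junb), 3 for Corexit 9527 (Egr3, Ier2 and Ier3), 1 for 9500+oil (Junb) and 3 for 9527+oil (Fos, Junb and Ier3), and every one of these had a negative difference from the 2 remaining saline mice. The shares of all genes at that threshold were 0.959%, 1.64%, 4.98%, 1.24% and 12.3%. The interactions held 1 member for oil (Egr2) and 0 for the other 4 treatments, beside 5.98%, 1.96%, 2.81%, 2.63% and 6.73% of all genes, and the test of any difference among the female groups held 1 (Fos), beside 4.23%. None of these had an adjusted p under 0.05 (edgeR). For Corexit 9527 in female mice, Egr3 differed by -2.34 ± 0.81 (edgeR, adjusted p = 0.941) and Ier2 by -0.50 ± 0.19 (edgeR, adjusted p = 0.958) without the 4 libraries.

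**Figure D2:**
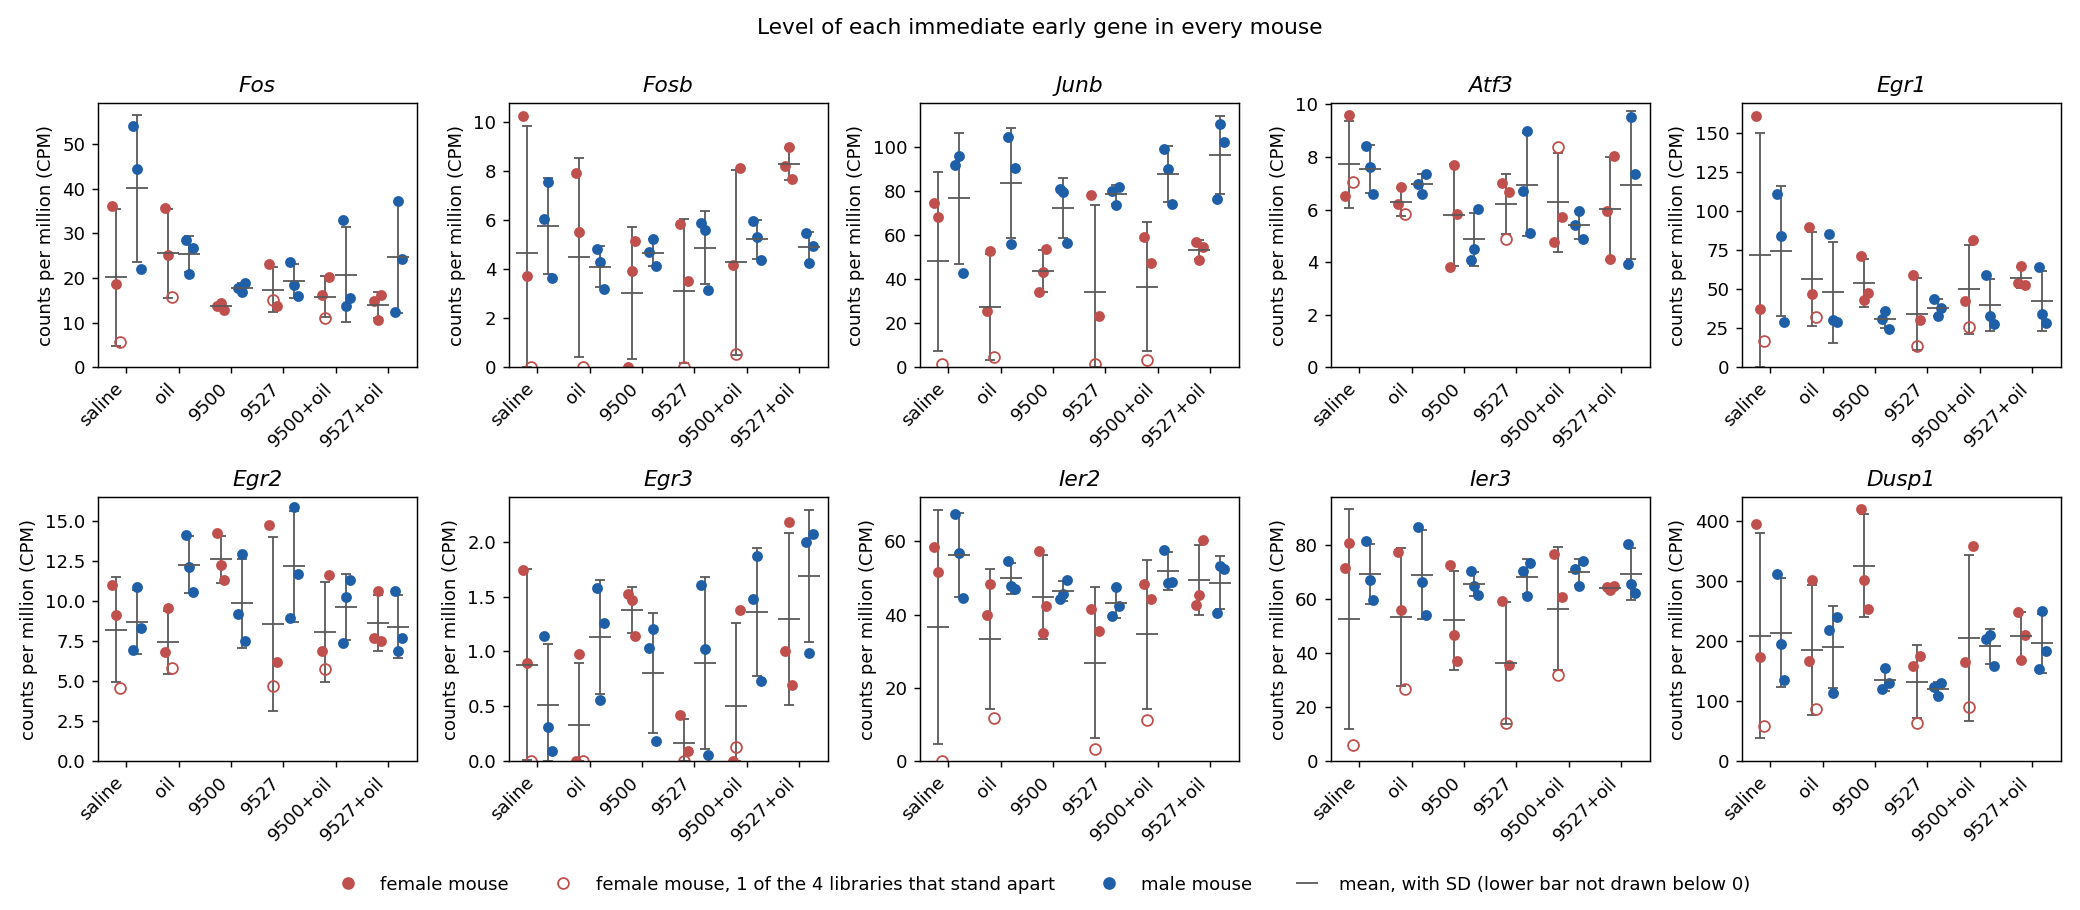
Level of each of the 10 members in CPM (y axis, from 0) in every mouse of the 6 groups (x axis). Red points are female and blue points male mice, open red points the 4 female libraries that stand apart, and grey bars the mean with SD of 3 mice. Fos in male mice reads 54.0, 44.5 and 21.9 CPM after saline and 16.9 to 19.0 CPM after Corexit 9500, and the open points lie at the bottom of their group for Junb and Ier2.

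Among the AP-1 genes, Fos showed the lowest p values in male mice for each treatment except 9500+oil, where that of Atf3 was lower. It was 54.0, 44.5 and 21.9 CPM in male saline mice, 17.7, 16.9 and 19.0 CPM in Corexit 9500 mice, 23.6, 18.5 and 16.0 CPM in Corexit 9527 mice, 28.5, 20.9 and 26.7 CPM in oil mice, 33.0, 13.7 and 15.5 CPM in 9500+oil mice, and 12.4, 37.2 and 24.3 CPM in 9527+oil mice. The Corexit 9500 mice lay below all male saline mice, and the other 4 treated groups overlapped with saline mouse 3. Fos differed by -1.17 ± 0.28 on the log2 scale (SE, edgeR, adjusted p = 0.688) for Corexit 9500. For Corexit 9527 the difference was -1.05 ± 0.30 (edgeR, adjusted p = 0.18). For 9500+oil it was -0.95 ± 0.38 (edgeR, adjusted p = 0.524), for 9527+oil -0.71 ± 0.41 (adjusted p = 0.891) and for oil -0.66 ± 0.29 (adjusted p = 0.608). DESeq2 gave Fos an adjusted p of 0.00545 for Corexit 9500, with 0.324% of all genes called, and of 0.0114 for Corexit 9527, with 3.98% of all genes called. All 5 comparisons use the same 3 saline mice. Leaving out saline mouse 3 moved the difference for Corexit 9500 to -1.47 and its adjusted p to 0.0619, and leaving out saline mouse 1 moved them to -0.89 and 0.623. Over the fits that left out 1 mouse, Fos ran from -1.46 (without 9500+oil mouse 13) to -0.68 (without saline mouse 1) for 9500+oil, from -1.13 (without 9527+oil mouse 17) to -0.39 (without 9527+oil mouse 16) for 9527+oil, and from -0.96 (without saline mouse 3) to -0.38 (without saline mouse 1) for oil.

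In female mice Fos was 36.2, 18.6 and 5.62 CPM after saline, the last in a library that stands apart. It was 35.6, 25.3 and 15.7 CPM after oil, 13.6, 14.4 and 12.9 CPM after Corexit 9500, 23.1, 15.1 and 13.8 CPM after Corexit 9527, 16.1, 11.1 and 20.3 CPM after 9500+oil, and 14.9, 10.6 and 16.3 CPM after 9527+oil. Every treated group lay within the range of the saline mice. Without the 4 libraries, 2 saline mice remained and the difference was -1.01 ± 0.30 for Corexit 9500 (edgeR, adjusted p = 1.00) and -0.96 ± 0.29 for 9527+oil (edgeR, adjusted p = 0.337). Without saline mouse 1 instead, the difference for Corexit 9500 was 0.17. The interaction of sex and Corexit 9500 was -0.60 ± 0.74 for Fos (edgeR, adjusted p = 1.00), male minus female. It was -0.16 without the female saline mouse 3 that stands apart and -1.31 without female saline mouse 1. Over both sexes, the difference was -0.87 ± 0.37 for Corexit 9500 (edgeR, adjusted p = 0.972).

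In male mice the log2 differences of the other AP-1 genes were smaller than those of Fos for all 5 treatments. Atf3 was 8.40, 7.61 and 6.59 CPM in male saline mice, 4.09, 4.51 and 6.01 CPM in Corexit 9500 mice and 5.40, 5.94 and 4.88 CPM in 9500+oil mice. Neither of these treated groups overlapped with saline. The difference was -0.63 ± 0.21 for Corexit 9500 (edgeR, adjusted p = 0.761) and -0.48 ± 0.18 for 9500+oil (edgeR, adjusted p = 0.512). Fos and Atf3 were thus the 2 of 10 members lower without overlap for Corexit 9500, beside 5.31% of all genes, and Atf3 the 1 of 10 for 9500+oil, beside 7.63% of all genes. In male Corexit 9527 mice Atf3 spanned 5.12 to 9.01 CPM and overlapped with saline. In female mice it was 6.53, 9.60 and 7.03 CPM after saline and 3.82 to 8.39 CPM after the 5 treatments, with overlap in each group.

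Junb, the most abundant AP-1 gene here, was 91.6, 95.8 and 42.5 CPM in male saline mice and 55.9 to 110 CPM over the 15 treated males, with log2 differences from -0.09 ± 0.28 (Corexit 9500) to 0.33 ± 0.28 (9527+oil). In female mice it differed from saline by -0.79 ± 1.32 for oil, -0.14 ± 1.10 for Corexit 9500, -0.48 ± 1.56 for Corexit 9527, -0.38 ± 1.38 for 9500+oil and 0.15 ± 1.13 for 9527+oil with all mice, and for all but oil the sign turned when 1 mouse was left out. In the 14 female libraries, Junb was highest in Corexit 9527 mouse 10, saline mouse 1 and saline mouse 2, at 78.0, 74.5 and 68.1 CPM. Without the 4 libraries it was lower than in these 2 saline mice at an unadjusted p under 0.05 for 4 of 5 treatments, with differences of -0.87 ± 0.33 for oil, -0.71 ± 0.23 for Corexit 9500, -0.42 ± 0.17 for 9500+oil and -0.41 ± 0.11 for 9527+oil (edgeR). The smallest of their adjusted p values was 0.325. Female oil mouse 4 and Corexit 9527 mouse 12 had the lowest Junb of the 14 libraries, 25.4 and 23.2 CPM, and also the lowest ratio of GC-rich to GC-poor genes of the 14, -0.64 and -0.44 on the log2 scale. Fosb, a low-level relative of Fos, stayed between 3.15 and 7.56 CPM in male mice.

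Of the EGR genes, Egr1 had the same direction as Fos in male mice but varied more within the saline group. It was 111, 83.8 and 29.0 CPM in male saline mice, 31.2, 35.8 and 24.8 CPM after Corexit 9500, 43.6, 33.1 and 37.9 CPM after Corexit 9527, 85.3, 30.1 and 28.7 CPM after oil, 59.1, 32.6 and 28.0 CPM after 9500+oil, and 64.1, 34.2 and 28.3 CPM after 9527+oil. Saline mouse 3 lay among the treated mice, so every group overlapped with saline. The log2 difference was -1.29 ± 0.40 for Corexit 9500 (edgeR, adjusted p = 0.755) and -0.96 ± 0.40 for Corexit 9527 (edgeR, adjusted p = 0.329), and -0.88 and -0.56 without saline mouse 1. It was -0.90 ± 0.44 for 9500+oil, -0.82 ± 0.47 for 9527+oil and -0.64 ± 0.53 for oil, none with a p under 0.05. When 1 mouse was left out these 3 ran from -1.30 to -0.50, from -1.26 to -0.42 and from -1.34 to -0.23, weakest without saline mouse 1. Unadjusted p values were under 0.05 without saline mouse 3 for both mixtures, and without 9500+oil mouse 13, 9527+oil mouse 16 and oil mouse 4 for their own groups, with adjusted p values of 0.327 or more (edgeR). Without saline mouse 3 the difference for Corexit 9500 was -1.67, with an adjusted p of 0.111. In female mice Egr1 reached 161 CPM in saline mouse 1, the highest of all 36 libraries, and 37.2 and 17.1 CPM in saline mice 2 and 3. The treated female mice spanned 13.5 to 90.1 CPM. The sign of the female difference rested on saline mouse 1. It was negative for all 5 treatments with all mice, from -0.33 ± 0.79 for 9527+oil to -1.06 ± 0.93 for Corexit 9527, and positive for all 5 without that mouse, from 0.32 to 1.08.

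Egr2, known for roles in myelination and in T cells, had higher values in the 1 comparison where its groups did not overlap. It was 11.0, 9.10 and 4.57 CPM in female saline mice and 14.2, 12.3 and 11.3 CPM in female Corexit 9500 mice. Egr2 was thus the 1 of 10 members higher without overlap in that comparison, beside 3.56% of all genes, with a difference of 0.61 ± 0.47 (edgeR, adjusted p = 1.00), or 0.33 ± 0.24 (edgeR, adjusted p = 1.00) without saline mouse 3, which stands apart. In male mice it was 6.96, 10.9 and 8.31 CPM after saline and 14.1, 12.1 and 10.6 CPM after oil, a difference of 0.49 ± 0.20 (edgeR, adjusted p = 0.564) with overlap of 1 oil mouse and 1 saline mouse. Egr3, the least abundant member, was 1.14, 0.315 and 0.0903 CPM in male saline mice and 2.00, 0.990 and 2.07 CPM in male 9527+oil mice, a difference of 1.71 ± 0.73 (edgeR, adjusted p = 0.885) with overlap. It was 3.07 without saline mouse 1, which held the highest value of the saline group.

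Ier2 and Ier3 were the steadiest members in male mice. Ier2 was 67.4, 56.9 and 44.5 CPM after saline and 39.6, 47.5 and 42.4 CPM after Corexit 9527, a difference of -0.38 ± 0.16 (edgeR, adjusted p = 0.328), with 1 Corexit 9527 mouse above saline mouse 3. It ran from -0.23 (without saline mouse 1) to -0.51 (without saline mouse 3). Ier3 spanned 54.1 to 86.7 CPM over the 18 males, and its differences from saline lay between -0.08 ± 0.12 and 0.01 ± 0.12. In female mice the saline values of Ier3 were 71.4, 80.7 and 5.98 CPM. With all mice its differences for Corexit 9527 and 9527+oil were -0.53 ± 0.95 and 0.28 ± 0.83. Without the 4 libraries, Ier3 was lower at an unadjusted p under 0.05 for Corexit 9527 (-0.67 ± 0.26, edgeR, adjusted p = 0.977) and for 9527+oil (-0.24 ± 0.10, edgeR, adjusted p = 0.395), so the sign for 9527+oil rested on saline mouse 3.

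Dusp1, the MAP kinase phosphatase, had the highest CPM of the members. In male mice it was 312, 195 and 135 CPM after saline, 123, 109 and 130 CPM after Corexit 9527, 120, 155 and 130 CPM after Corexit 9500, 217, 113 and 240 CPM after oil, 203, 210 and 158 CPM after 9500+oil, and 154, 250 and 183 CPM after 9527+oil. The Corexit 9527 mice lay below all saline mice, although the highest of them and the lowest saline mouse were only 130 and 135 CPM. Dusp1 was the 1 of 10 members lower without overlap there, beside 9.46% of all genes. The difference was -0.83 ± 0.26 for Corexit 9527 (edgeR, adjusted p = 0.215; DESeq2, adjusted p = 0.0201) and -0.66 ± 0.26 for Corexit 9500 (edgeR, adjusted p = 0.782). Without saline mouse 1 these were -0.45 and -0.29. In female mice Dusp1 was 394, 173 and 58.1 CPM after saline, 420, 302 and 253 CPM after Corexit 9500 and 159, 62.8 and 175 CPM after Corexit 9527. The interaction of sex and Corexit 9500, male minus female, was -1.30 ± 0.77 for Dusp1 (edgeR, adjusted p = 1.00). It was -2.14 without female saline mouse 1 and -0.86 without the female saline mouse 3 that stands apart. The gene model of Dusp1 overlaps Ergic1 and the pseudogene Gm8225 on the opposite strand, and the pseudogene AC122252.4 and the intronic transcript AC122252.1 on the same strand. That of Junb overlaps Prdx2 on the opposite strand. Libraries were made with a stranded kit, according to the methods of the study. Whether the strand was used in the quantification with Salmon is not given in the sources used here.

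**Figure D3:**
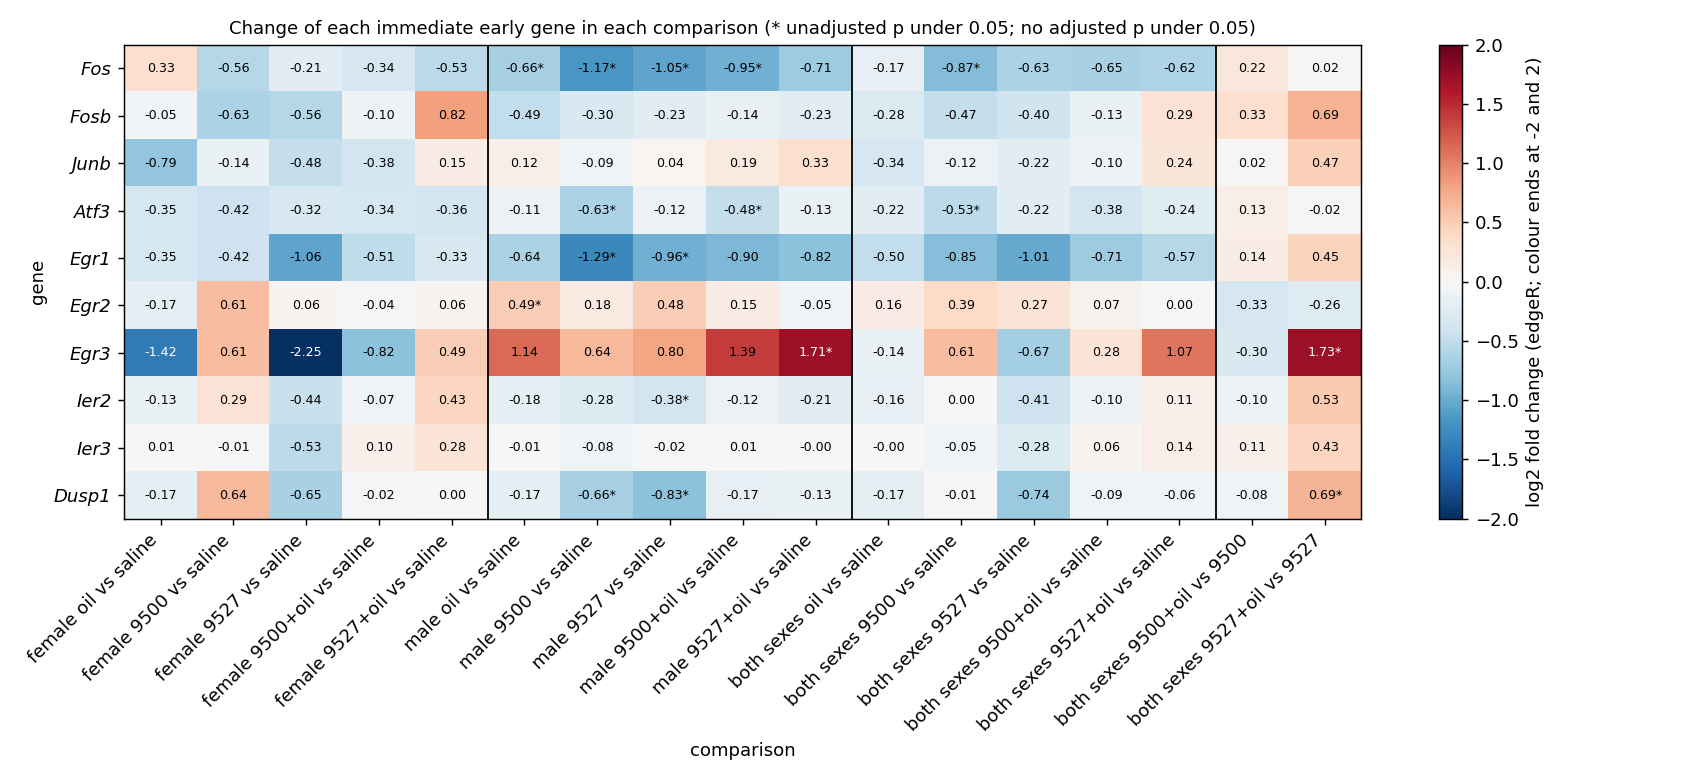
Log2 fold change by edgeR (colour and printed value) of each of the 10 members (rows) in 17 comparisons (columns), with an asterisk for an unadjusted p under 0.05. Fos and Egr1 are negative in all 5 male columns and all 5 columns over both sexes, although for oil over both sexes both turn positive without female saline mouse 1, and 8 of the 17 asterisks lie in the male columns for Corexit 9500 and Corexit 9527.

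Read over all 10 members, the male Corexit comparisons held more low p values than the rest. For Corexit 9500 in male mice, 4 of 10 members had an unadjusted p under 0.05 and a lower level (Fos, Egr1, Atf3 and Dusp1), beside 2.36% of all genes lower at that threshold. When 1 mouse was left out this count ran from 2 (without Corexit 9500 mouse 7) to 7 (without saline mouse 3). The shares of all genes given beside counts here are from fits with all mice. Those of the fits without 1 mouse are not given. For Corexit 9527 in male mice, 4 of 10 were lower (Fos, Dusp1, Ier2 and Egr1), beside 5.78% of all genes, and 2 were lower without saline mouse 1, saline mouse 2, Corexit 9527 mouse 10 or Corexit 9527 mouse 12. Markers of other cells moved in the same comparison. Of the blood and immune markers 8 of 8 were lower, 3 of them at an unadjusted p under 0.05, with a median of -0.57 and a summed level of 1862 to 3873 CPM against 4892 to 8173 CPM after saline. That sum mainly reflects the hemoglobin genes Hbb-bs and Hba-a1, with medians of 2819 and 1583 CPM over all male mice. Each other blood and immune marker had a median of at most 92.6 CPM. Of the markers of heart, muscle, fat and other tissue 6 of 7 were lower, 4 at that threshold, with a summed level of 123 to 259 CPM against 181 to 301 CPM, and of the lung markers 6 of 10 were lower, 4 at that threshold. For Corexit 9500 in male mice 3 of 9 blood and immune markers were lower, all 3 at that threshold, with a summed level of 3452 to 5051 CPM. The part of these cells in the members' levels was not tested. These comparisons share the saline mice and are not independent of each other. For 9500+oil 2 of 10 were lower (Atf3 and Fos), beside 4.04% of all genes, with 3 without saline mouse 3, 1 without 9500+oil mouse 14 and 0 without saline mouse 1, saline mouse 2 or 9500+oil mouse 15. For oil 1 was lower and 1 higher (Fos and Egr2), beside 2.45% and 5.75%, with 3 lower without saline mouse 3 and 0 lower without saline mouse 1, saline mouse 2, oil mouse 5 or oil mouse 6. For 9527+oil 1 was higher (Egr3), beside 3.54%, and 0 were higher in 4 of the 6 fits that left out 1 mouse (saline mouse 2 or 3, 9527+oil mouse 16 or 18). The median log2 difference of the members in male mice was -0.29 for Corexit 9500 and -0.17 for Corexit 9527, and -0.01 for all genes in both. Without saline mouse 3 these medians were -0.48 and -0.36, and the latter was -0.03 without Corexit 9527 mouse 12. In female mice it was -0.08, -0.50 and 0.11 for Corexit 9500, Corexit 9527 and 9527+oil. These were -0.52, -0.56 and -0.33 without the 4 libraries.

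Over both sexes, 2 of 10 members had an unadjusted p under 0.05 for Corexit 9500 (Fos and Atf3, both lower), beside 1.01% of all genes. Without the 4 libraries there were 3 (Fos, Atf3 and Egr1), beside 5.62% of all genes in either direction, and 0 without female Corexit 9500 mouse 9, male saline mouse 1 or 2, or male Corexit 9500 mouse 7 or 8. Atf3 differed by -0.53 ± 0.23 (edgeR, adjusted p = 0.972). For oil, 9500+oil and 9527+oil there were 0 of 10, beside 0.442%, 0.418% and 2.99% of all genes. These counts were 0, 2 (Fos and Atf3) and 1 (Fos) without the 4 libraries, all lower, beside 2.52%, 7.16% and 10.6%. For Corexit 9527 there were 0 of 10, beside 2.86% of all genes, and 4 of 10 without the 4 libraries, beside 15.6%. These 4 were Ier2 (-0.43 ± 0.12, edgeR, adjusted p = 0.0851), Dusp1 (-0.80 ± 0.24, edgeR, adjusted p = 0.120), Fos (-0.85 ± 0.27, edgeR, adjusted p = 0.149) and Egr1 (-1.04 ± 0.41, edgeR, adjusted p = 0.238). The study, which used DESeq2, listed Egr1 and Fos as lower for Corexit 9527 and Egr2 as higher for Corexit 9500, with p values under 0.05.

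Oil added to a dispersant was compared with the dispersant alone over both sexes. Between 9527+oil and Corexit 9527, 8 of 10 members were higher in the mixture, with a median of 0.46 against 0.01 for all genes. The median was 0.22 without female Corexit 9527 mouse 11, which stands apart, 0.20 by voom, and 0.37 to 0.68 without any other single mouse. Of the blood and immune markers 8 of 9 were also higher, 2 at an unadjusted p under 0.05, with a median of 0.71, and their summed level was 4353 to 7085 CPM in male 9527+oil mice against 1862 to 3873 CPM in male Corexit 9527 mice. In female mice it was 1590 to 2768 CPM against 413 to 2495 CPM. These sums again mainly reflect hemoglobin genes, and the part of blood and immune cells in the members' levels was not tested. Dusp1 was 154, 250 and 183 CPM in male and 248, 168 and 210 CPM in female 9527+oil mice, and 109 to 130 CPM in male and 62.8 to 175 CPM in female Corexit 9527 mice. The groups overlapped in female and not in male mice, beside 7.94% of all genes higher without overlap in male mice. The difference was 0.69 ± 0.23 (edgeR, adjusted p = 0.260). It was 0.53 ± 0.14 with an adjusted p of 0.0435 without female Corexit 9527 mouse 11, and 0.63 ± 0.14 with an adjusted p of 0.0158 by voom. Those fits called 6.63% and 10.2% of all genes. With all 6 groups in one fit it was 0.69 ± 0.36 (edgeR, adjusted p = 0.387). The log2 ratio of GC-rich to GC-poor genes was 0.23 to 0.40 in the 6 libraries of the mixture and -0.44 to 0.40 in the 5 Corexit 9527 libraries other than mouse 11. The part of that ratio in the difference was not tested. Egr3 differed by 1.73 ± 0.73 (edgeR, adjusted p = 0.332). Dusp1 and Egr3 were the 2 members with an unadjusted p under 0.05, beside 5.42% of all genes higher at that threshold. Egr3 no longer met it without female Corexit 9527 mouse 12, female 9527+oil mouse 17 or male 9527+oil mouse 16 or 18. The same 2 members met it without the 4 libraries, beside 25.6% of all genes in either direction, and 0 met it with all 6 groups in one fit, beside 13.5%. Between 9500+oil and Corexit 9500 there were 0 of 10, beside 1.95% of all genes and, without the 4 libraries, 3.3%, and the member differences ran from -0.33 ± 0.23 (Egr2) to 0.33 ± 0.71 (Fosb).

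Other genes of the response were counted in the same fits. Of 64 further immediate early and primary response genes, 0 passed the adjusted threshold in any of the 24 comparisons (edgeR). Other fits called some of them. Between 9527+oil and Corexit 9527 voom called 14, DESeq2 4 and edgeR without the 4 libraries 4, beside 10.2%, 4.13% and 6.63% of all genes. DESeq2 also called 2 for Corexit 9527 and 1 for 9500+oil in male mice and 4 for any difference among the male groups, beside 3.98%, 0.343% and 3.94%, and voom called 2 for Corexit 9527 over both sexes, beside 5.19%. For Corexit 9527 in male mice 12 were lower and 3 higher at an unadjusted p under 0.05, beside 5.78% and 7.96% of all genes, with the smallest p values for Gadd45g, a stress sensor (0.80 ± 0.15, edgeR, adjusted p = 0.0768), and Klf4, a growth-arrest factor (-0.50 ± 0.13, edgeR, adjusted p = 0.165). For Corexit 9500 in male mice 4 were lower, beside 2.36% of all genes, led by Dusp4 (-0.38 ± 0.13) and Dusp5 (-0.31 ± 0.12), a pair of MAP kinase phosphatases. Between 9527+oil and Corexit 9527, 13 were higher and 2 lower, beside 5.42% and 8.73% of all genes, led by the orphan receptor Nr4a1 (0.80 ± 0.19, edgeR, adjusted p = 0.115) and Rgs1, a regulator of G protein signaling (-1.20 ± 0.34, edgeR, adjusted p = 0.189). The median of these 64 genes was -0.05, -0.06 and 0.22 in these 3 comparisons.

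Of 37 upstream kinases, transcription factors and negative regulators, of which 36 or 37 were tested in each comparison, 0 passed the adjusted threshold. For Corexit 9527 in male mice 5 were lower and 1 higher at an unadjusted p under 0.05, beside the same 5.78% and 7.96%, with Map2k4, a kinase of the JNK and p38 branches (0.36 ± 0.11), and Dusp3, a phosphatase of ERK and JNK (-0.38 ± 0.12), at the smallest p values. Srf, the factor that binds the CArG box, differed by 0.50 ± 0.19 between 9527+oil and Corexit 9527 (edgeR, adjusted p = 0.298). Of 12 heat shock genes, 0 passed. For Corexit 9527 in male mice 3 were lower at an unadjusted p under 0.05, beside 5.78% of all genes, led by the small chaperone Hspb1 (-0.90 ± 0.22, edgeR, adjusted p = 0.144) and Hsph1 (-3.11 ± 1.02, edgeR, adjusted p = 0.232), and the median of the list was -0.31. For 9500+oil in male mice 6 of 12 were lower at that threshold, beside 4.04% of all genes, with a median of -0.52. The summed level of the list was 1959 to 2212 CPM after 9500+oil and 2235 to 3035 CPM after Corexit 9527. Both overlapped with the 1921 to 4462 CPM of male saline mice, whose median was 2707 CPM. Of 12 glucocorticoid-responsive genes 1 passed, in Corexit 9527 male mice. It was Lcn2, an iron-binding protein of innate defense that many stimuli induce, which rose by 1.31 ± 0.17 (edgeR, adjusted p = 0.0468). Tsc22d3, a direct glucocorticoid target, was -0.51 ± 0.21 there (edgeR, adjusted p = 0.345).

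The members were then compared from mouse to mouse. In the 18 male mice, 37 of 45 pairs of members had a positive Pearson r of log2 CPM, with a median r of 0.31, and 7 pairs had an adjusted permutation p under 0.05. Fos and Ier2 were correlated with r = 0.78 (permutation adjusted p = 0.0036), rho = 0.67 (adjusted p = 0.0422) and r = 0.61 without the 2 mice farthest from the median. Ier2 and Dusp1 had r = 0.72, Egr1 and Ier3 r = 0.71, Fos and Atf3 r = 0.67, Junb and Dusp1 r = 0.66, Fos and Dusp1 r = 0.64, and Fosb and Egr1 r = 0.61. By rho, 6 of 45 pairs had an adjusted permutation p under 0.05, and Fos with Dusp1 did not (rho = 0.52, adjusted p = 0.146). With each value centred on its group, 38 of 45 pairs were positive and the median r was 0.34. In the 14 female mice 29 of 45 pairs were positive, the median r was 0.18, and 0 pairs had an adjusted permutation p under 0.05. Fos and Egr1 had r = 0.60 there and r = 0.05 without the 2 farthest mice. A pooled r over 18 female mice is not given for single pairs, because the 4 libraries form a cluster of their own. Against the ratio of GC-rich to GC-poor genes of the library, male Junb had r = 0.66 (permutation adjusted p = 0.0333) and rho = 0.57 (permutation adjusted p = 0.072), with r = 0.37 without the 2 farthest mice. Male Dusp1 had r = 0.59 (permutation adjusted p = 0.050) and rho = 0.59 (permutation adjusted p = 0.072), with r = 0.51 without the 2 farthest mice. Neither rho met the threshold. Male Fos had r = 0.08 (permutation adjusted p = 0.829) and rho = 0.02 (permutation adjusted p = 0.94). In the 14 female mice Junb had r = 0.75 (permutation adjusted p = 0.0539) and rho = 0.25, with r = 0.09 without the 2 farthest mice. Egr3 had r = 0.68 there (permutation adjusted p = 0.0755) and rho = 0.39, with r = 0.14 without the 2 farthest mice. The part of GC content in the correlation of Junb with Dusp1 was not tested.

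**Figure D4:**
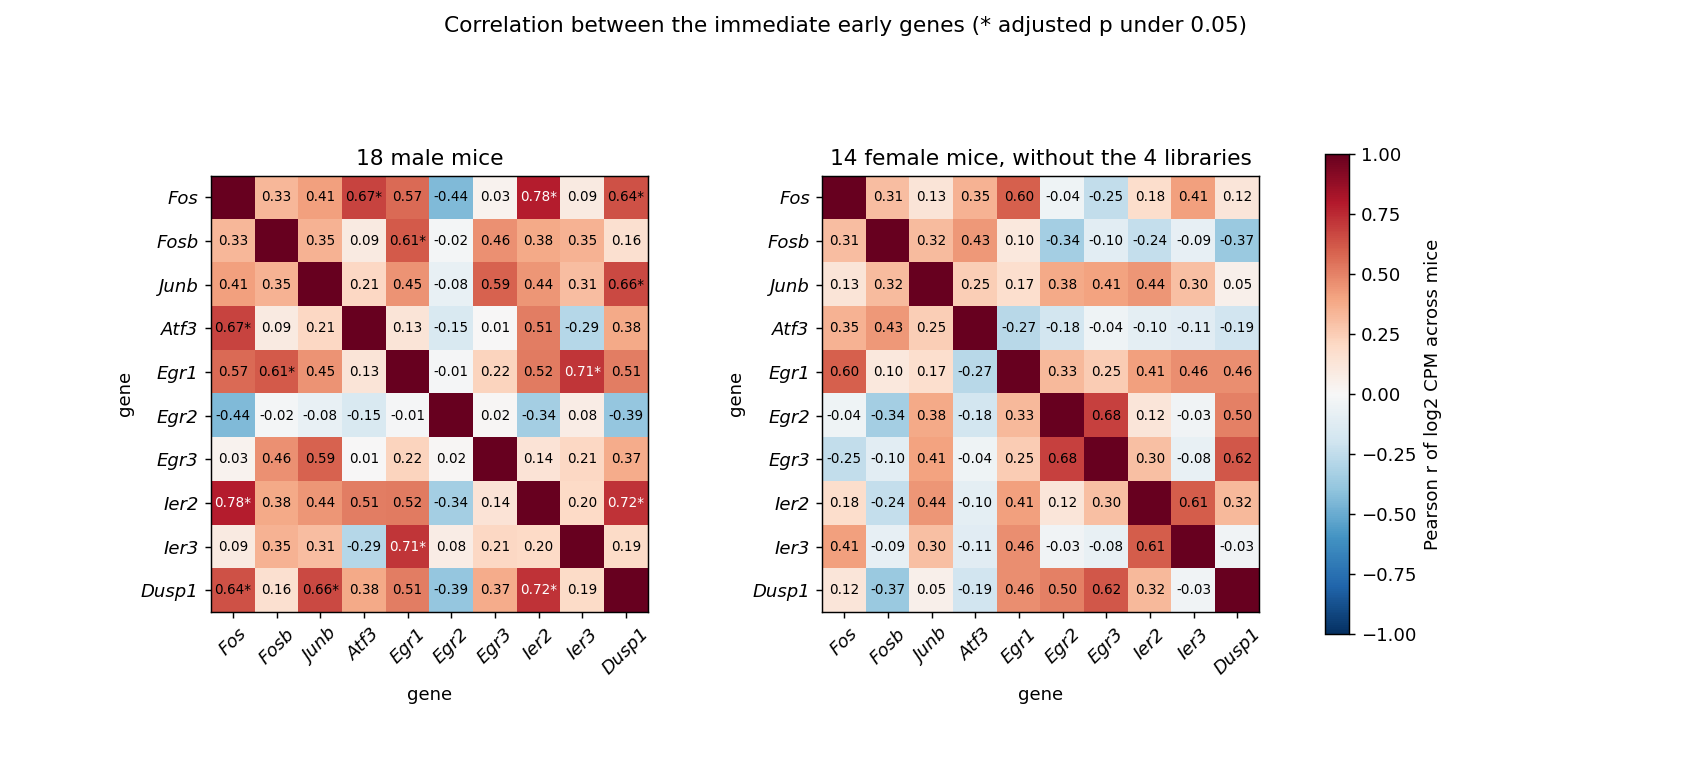
Pearson r of log2 CPM between each pair of the 10 members (rows and columns) across 18 male mice (left) and 14 female mice without the 4 libraries (right), with an asterisk for an adjusted permutation p under 0.05. The male panel holds 7 such pairs, of which Fos with Ier2 is the highest at 0.78, and the female panel holds 0.

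The genes most like the mean of the standardized members were ranked by the lower of the r in 14 female and in 18 male mice, with values centred on their group, over 12711 genes that are no members. The 10 highest were Limd1 (lower r = 0.73), Hnrnpl (0.71), Fam78a (0.70), Irf9 (0.68), Adrbk1 (0.68), Irf5 (0.66), Samd10 (0.65), Irf7 (0.64), Pim2 (0.64) and Lamtor1 (0.63), and 0 of them are on the list of other immediate early genes. Over all 36 libraries, or without centring, 1 of these 10 genes stayed among the 10 highest. The median lower r was -0.05 over 60 other immediate early genes and -0.15 over all genes.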

How the data were processed

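Left lung RNA of 36 mice was sequenced, and the study's methods state that all samples passed an RNA integrity number of 8. The authors estimated reads per GRCm38 transcript with Salmon and combined them with tximport. They deposited expected counts per gene symbol, not normalized, in a table of 18120 rows for female and 18295 rows for male mice. Expected counts were to be rounded but already were whole. Rows named by a date (24 per table) were kept, and 4 rows per table that share a name were left out. All 36 count columns were used. Groups and mouse numbers came from the sample titles. The lowest chi-square per gene between 2 mice of a group was 12.0, so none of the 36 pairs of mice within a group agreed within sampling noise. Pairs across groups were not compared.

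Members and gene lists were chosen with earlier results of these data known. Genes named were the members, listed genes with an adjusted p under 0.05 or else those with the smallest p, and the 10 genes most like the members. Srf, Dusp5 and Tsc22d3 were named after their values were seen. Counts were tested with edgeR 4.0.16 (quasi-likelihood, TMM, filterByExpr) in R 4.3.3, with Benjamini-Hochberg adjustment over all genes tested and a sex term in fits over both sexes. CPM use effective library sizes, and log2 CPM a prior count of 2. SE is the log2 fold change divided by the square root of F. Correlations used 100000 permutations, 2-sided, adjusted over 45 pairs, or over the 10 members for GC. GC content is that of the longest transcript of each gene and exon length that of all its exons together, both from GENCODE M21. Scripts were tested on simulated counts. Alternatives were DESeq2, limma voom, DESeq2's size factors, upper-quartile normalization, no filter, all 6 groups in one fit, leaving out the 4 libraries, and each mouse left out in turn.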

Additional observations from a re-analysis of the deposited data

How the results depend on the processing

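The number of members with an adjusted p under 0.05 stayed at 0 under every alternative run, except in 3 comparisons. It was 1 for Corexit 9500 and 2 for Corexit 9527 in male mice with DESeq2. It was 1 for 9527+oil against Corexit 9527 with voom and without the 4 libraries, and 0 to 1 over the fits that left out 1 mouse, with 1 only without female Corexit 9527 mouse 11. The cause was not tested. DESeq2 called more genes, 49 against 1 for Corexit 9500 and 594 against 17 for Corexit 9527 in male mice and 636 against 86 for 9527+oil against Corexit 9527. The median log2 difference of the members changed sign when 1 mouse was left out in all 5 female comparisons, from -0.52 to 0.73 for Corexit 9500, for example. Over both sexes it did so for every treatment except Corexit 9527 (-0.74 to -0.16), and it went from 0.054 to -0.16 for 9527+oil without the 4 libraries. In male mice it stayed negative for Corexit 9500, Corexit 9527 and 9527+oil. When 1 mouse was left out, all 50 fold changes of single members in female mice, 44 of 50 in male mice, 64 of 70 over both sexes and all 50 interactions moved by over 1.5 times or changed sign in at least 1 fit. They changed sign in 37, 20, 37 and 31 of these. With all 6 groups in one fit, the members at an unadjusted p under 0.05 in male mice were 0, 4, 3, 1 and 0 for oil, each dispersant and the mixtures with 9500 and 9527, against 2, 4, 4, 2 and 1 as reported, and over both sexes 3 against 0 for Corexit 9527 and 1 against 0 for 9500+oil. The shares of all genes in that fit were 8.27%, 4.90%, 16.2%, 7.60% and 5.45% in male mice. Over both sexes they were 6.02% for Corexit 9527 and 1.73% for 9500+oil. By voom the counts over both sexes were 0, 4, 1, 2 and 1 against 0, 2, 0, 0 and 0, and 1 against 0 for 9500+oil against Corexit 9500. The shares of all genes by voom were 4.20%, 11.4%, 20.1%, 7.31% and 11.2%, and 7.73% for 9500+oil against Corexit 9500. DESeq2 gave 2 against 0 for any difference among the male groups, beside 13.3% of all genes, and 1 against 0 for 9500+oil over both sexes, beside 1.29%. In male mice DESeq2 gave 2, 3, 3, 1 and 1 members for oil, the dispersants and the mixtures, beside 8.20%, 6.20%, 14.0%, 8.72% and 5.32%. Voom gave 2, 4, 3, 2 and 2 there, beside 11.0%, 7.18%, 17.3%, 10.3% and 7.79%. For oil, 0 were lower by voom or with DESeq2's size factors (8.16% of all genes), against 1 as reported. Junb, Ier2 and Ier3 turned sign in female mice for 9527+oil, with ranges of -0.41 to 0.62, -0.15 to 0.93 and -0.24 to 0.73. Fos and Egr1 also turned sign in female mice, where saline mouse 1 held the highest and saline mouse 3 the lowest Fos and Egr1 of the saline group. Over the fits that left out 1 mouse, female Fos ran from -0.091 to 1.02 for oil, -1.01 to 0.17 for Corexit 9500, -0.65 to 0.50 for Corexit 9527, -0.79 to 0.34 for 9500+oil and -0.96 to 0.20 for 9527+oil. Female Egr1 ran from -0.85 to 0.99, -0.88 to 0.98, -1.72 to 0.32, -1.06 to 0.82 and -0.78 to 1.08 for the same treatments, and was 0.054 for oil with voom. Over both sexes, the difference for oil ran from -0.41 to 0.053 for Fos and from -0.78 to 0.061 for Egr1. In female mice the median r between members was 0.65 with the 4 libraries against 0.18 without. Of the 10 genes most like the members, 1 was kept with all 36 libraries and 1 without centring.

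No paired analysis was possible because mouse numbers are not shared between the groups of a table. With 3 mice per group, the SE of the log2 difference in female mice was 0.39 (Atf3) to 1.97 (Egr3), and 0.098 (Ier3) to 1.38 (Fosb) without the 4 libraries, so the size of difference that could be detected varied widely between members. Voom was not run on the interactions and the tests of any difference.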
